A study of Mus musculus with 20 samples.

Results

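The mark H3K9ac was compared between 1 wild-type (WT) liver and 1 liver of a mouse lacking Cpt2 in the liver (Cpt2 KO, genotype Cpt2 L-/-), by the places where each library had a called interval. The members were the 46568 consensus H3K9ac intervals built from these 2 of the series' 20 samples. An interval was WT only, Cpt2 KO only or shared according to whether rows of the WT library, the Cpt2 KO library or both overlapped it by at least 1 base. By this rule 9700 intervals (20.8%) were WT only, 11142 (23.9%) were Cpt2 KO only and 25726 (55.2%) were shared. The file gives positions and widths but no enrichment, and each genotype had 1 library, so no difference in H3K9ac itself could be tested and none has a replicate check. At the edge of the rule, 116 shared intervals held 50 or fewer bases common to both libraries, the smallest 1 base, while 150 WT-only and 168 Cpt2 KO-only intervals lay within 50 bases of a row of the other library.

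The series is ChIP-seq (sequencing of DNA pulled down with antibodies to histone marks) of liver from male C57BL/6 mice aged 9 weeks and fasted for 24 hours. Besides WT and Cpt2 KO it includes mice with a knockout of Ppara (Ppara KO, Ppara -/-) and mice with both losses (DKO, Cpt2 L-/- ; Ppara -/-). H3K27ac and H3K4me1 were measured in 2 livers of each of the 4 genotypes, and H3K9ac in WT replicate 1 and Cpt2 KO replicate 2 only. Pooled inputs served as the background, 1 for H3K9ac and 1 for the other marks. What drives the liver deletion of Cpt2 is not given in the sources used here, every animal was fasted, and the tissue was whole liver, so more cells of a type and more of a mark per cell cannot be told apart. Whether the H3K9ac animals also gave the H3K27ac libraries is not given in the sources used here, so p-values over livers measure only the spread between these libraries.

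Acetylation of histone H3 at the lysines called K9 and K27 marks active promoters and enhancers, and H3K9ac is strongest around the start sites of transcribed genes. H3K4me1 marks enhancers more broadly, whether or not they are active. Cpt2 is the inner-membrane carnitine palmitoyltransferase that long-chain fatty acids need to enter mitochondrial oxidation, the process that sustains ketone and glucose output of the fasted liver, and Ppara is the fatty-acid-sensing nuclear receptor that drives the fasting genes.

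Start sites marked by H3K9ac in 1 library and by H3K27ac in both livers of the same genotype and neither of the other are the places where the 2 acetyl marks gave the same call, and 4 of their promoters are shown. The windows, 250 bases before to 50 after the start, are RefSeq's on GRCm38.p6 (the mm10 build of the files), and 17492 of 21900 protein-coding genes had one. Capitals mark matches, on either strand, to 6 motifs. They are the DR1 element that Ppara can bind, TGACGTCA, TGATGCAA, the antioxidant response element core, CACGTG, and TGACTCA or its reverse complement TGAGTCA. In that order they were found in 0.047%, 2.23%, 0.865%, 2.67%, 7.84% and 4.66% of all 21263 windows. Slc3a1, the heavy chain of a cystine transporter, and Saa1, serum amyloid A, had H3K9ac in WT, and Nupr1, a stress-induced nuclear protein, and Ucp3, a mitochondrial carrier, had it in Cpt2 KO.
Slc3a1 (WT only; chr17:85028097-85028396, plus strand): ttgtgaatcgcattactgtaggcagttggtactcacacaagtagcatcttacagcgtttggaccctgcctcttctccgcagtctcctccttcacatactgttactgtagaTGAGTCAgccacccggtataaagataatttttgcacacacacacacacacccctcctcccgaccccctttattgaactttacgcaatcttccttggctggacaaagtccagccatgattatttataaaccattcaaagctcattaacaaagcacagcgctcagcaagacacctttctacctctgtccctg
Saa1 (WT only; chr7:46742931-46743230, minus strand): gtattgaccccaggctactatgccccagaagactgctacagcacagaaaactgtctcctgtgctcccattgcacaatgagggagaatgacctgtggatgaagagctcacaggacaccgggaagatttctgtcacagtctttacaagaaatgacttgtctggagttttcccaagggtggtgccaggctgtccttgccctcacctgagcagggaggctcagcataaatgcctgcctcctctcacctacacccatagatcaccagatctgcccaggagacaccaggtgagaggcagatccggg
Nupr1 (Cpt2 KO only; chr7:126625421-126625720, minus strand): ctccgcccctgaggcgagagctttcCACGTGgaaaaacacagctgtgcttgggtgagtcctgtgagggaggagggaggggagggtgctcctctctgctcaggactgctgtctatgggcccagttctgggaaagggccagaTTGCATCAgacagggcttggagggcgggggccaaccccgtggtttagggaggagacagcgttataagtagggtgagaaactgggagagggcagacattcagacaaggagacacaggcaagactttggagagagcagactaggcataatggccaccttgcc
Ucp3 (Cpt2 KO only; chr7:100472741-100473040, plus strand): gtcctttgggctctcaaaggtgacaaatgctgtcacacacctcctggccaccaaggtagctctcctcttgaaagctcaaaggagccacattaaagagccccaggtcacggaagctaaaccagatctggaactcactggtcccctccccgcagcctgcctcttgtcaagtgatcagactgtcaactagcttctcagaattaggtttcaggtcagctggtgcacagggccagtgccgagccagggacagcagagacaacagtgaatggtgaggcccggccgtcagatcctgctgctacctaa
The Slc3a1 window held TGAGTCA, the Nupr1 window held CACGTG and, on the other strand, TGATGCAA, and the windows of Saa1 and Ucp3 held none of the 6 motifs. TGACTCA or TGAGTCA was in 21 of 193 windows of WT-only start sites (10.9%) and in 40 of 748 of Cpt2 KO-only ones (5.35%). TGATGCAA was in 1 of 193 (0.518%) and 11 of 748 (1.47%), and the DR1 element was in 0 of 193 and in 2 of 748 (0.267%).

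The 2 libraries were alike in size. The WT library had 39287 intervals over 37.5 Mb, and the Cpt2 KO library had 41122 over 37.4 Mb. The H3K27ac libraries had 44454 to 48929 peaks and the H3K4me1 libraries 61189 to 72151. Read totals are not in the files, so the depth behind a missing call is unknown. At Cpt2 itself, an interval over the start site was shared (chr4:107920274-107923804), with 3494 bases in WT and 3314 in Cpt2 KO. H3K27ac folds over input there were 11.5 and 16.9 (WT), 18.7 and 23.3 (Cpt2 KO), 8.75 and 9.80 (Ppara KO) and 9.33 and 12.2 (DKO), and Cpt2 KO and WT did not differ by limma (log2 difference 0.36, SE 0.25, adjusted p = 0.35). A further 2 H3K9ac intervals in the gene were Cpt2 KO only. A shared interval 957 bases beyond its other end (chr4:107901659-107903025) had H3K27ac in all 4 livers with Cpt2 (7.77 and 9.88 in WT, 4.78 and 5.52 in Ppara KO) and in none of the 4 without it. The labels do not say which exons were removed, so these values do not check the knockout.

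Intervals of the 1-library classes were narrower and lay near gene ends less often than shared ones. Part of both differences is built into the class rule, and its size was not tested. A shared interval is the union of overlapping rows of 2 libraries, and wide rows meet the rule more easily. Distance runs from the nearest base, so wide intervals also reach a gene end more easily. The median width was 295 bases for WT only (95% interval 292 to 299), 283 for Cpt2 KO only (281 to 286) and 1020 for shared intervals (1004 to 1034). Only 295 WT-only and 165 Cpt2 KO-only intervals reached 1000 bases, against 13075 shared ones. Within 1000 bases of either end of a protein-coding gene lay 10.8% of WT-only intervals (95% Wilson interval 10.2 to 11.4), 20.4% of Cpt2 KO-only ones (19.7 to 21.2) and 48.6% of shared ones (48.0 to 49.2). The 2 narrow classes therefore had like widths but unlike places: 67 WT-only against 303 Cpt2 KO-only intervals lay over a start site. Inside gene bodies lay 75.8%, 76.5% and 80.6% of the classes, and 48.1% of WT-only and 46.7% of Cpt2 KO-only intervals had a shared interval within 1000 bases. These Wilson intervals cover counting error only, since the intervals of a library share its animal.

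**Figure D1:**
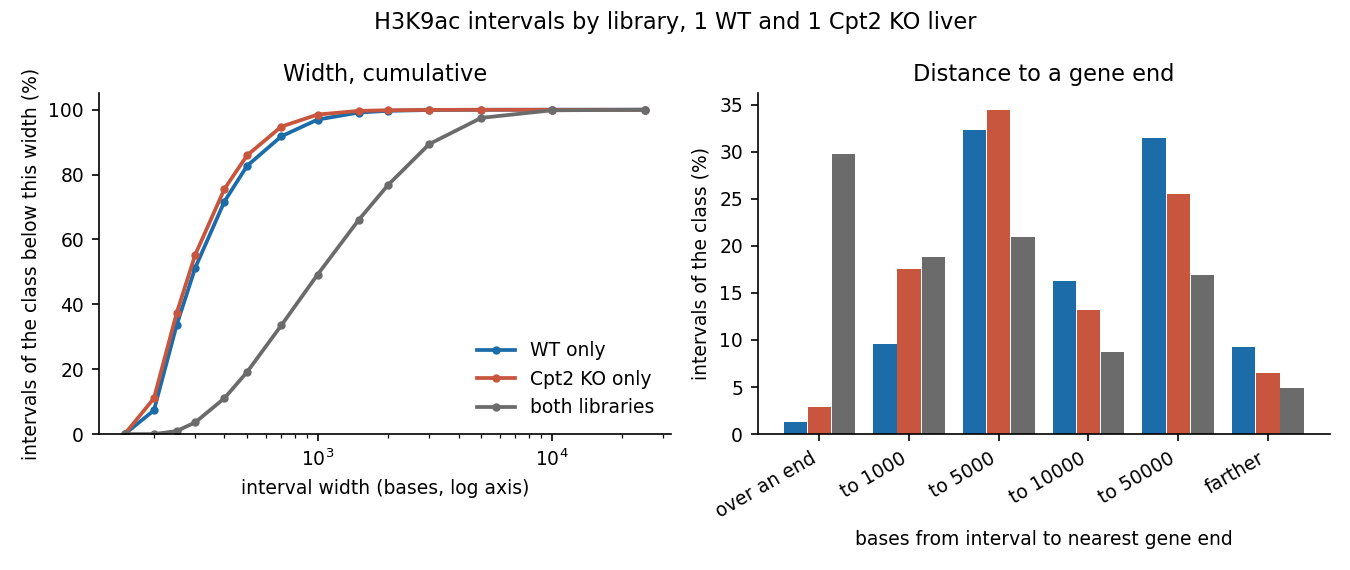
Cumulative share of H3K9ac intervals below each width (left; bases on a log axis) and share by distance to the nearest end of a protein-coding gene (right; bars, %), for intervals called in WT only, Cpt2 KO only or both. The 1-library classes have medians of 295 and 283 bases against 1020 for shared intervals, and Cpt2 KO-only intervals lie near gene ends more often than WT-only ones (20.4% and 10.8% within 1000 bases).

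WT-only intervals lay at 3364 protein-coding genes and Cpt2 KO-only intervals at 4726. Of the 39933 intervals at a protein-coding gene, 7814 were WT only (19.6%) and 9224 were Cpt2 KO only (23.1%). The 374 genes with 5 or more WT-only intervals held 3183 of them (40.7%), and the 342 genes with 5 or more Cpt2 KO-only intervals held 2584 (28.0%). The following genes are among the 10 with the most of each class and were chosen after their values were seen. Gfra1, a co-receptor of the neurotrophic factor GDNF, had 39 WT-only, 0 Cpt2 KO-only and 3 shared intervals. Egfr, the epidermal growth factor receptor, had 30, 0 and 1, and the urea cycle genes Cps1 and Ass1 had 22 WT-only and 0 Cpt2 KO-only intervals each. Cmip had 2 WT-only and 41 Cpt2 KO-only intervals, the most of that class, and Galnt2, a glycosyltransferase, had 1 and 30. Smad6, an inhibitor of BMP signalling, had 0 WT-only and 24 Cpt2 KO-only intervals, Ets1, a transcription factor of endothelial and immune cells, had 1 and 22, and Myo9b, a myosin, had 0 and 20.

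Of the 10 widest WT-only intervals, 9 overlapped H3K27ac in all 4 WT and Cpt2 KO livers, and Agt, angiotensinogen, did so in the WT livers alone. Of the 10 widest Cpt2 KO-only intervals, 2 (Abi3 and Slc48a1) overlapped it in all 4. H3K27ac fell in Cpt2 KO against WT at the WT-only intervals over the starts of Apol7a (3189 bases, log2 difference −1.12, adjusted p = 0.012 by limma) and Slco1a1, a sinusoidal organic anion transporter (2848 bases, log2 difference −1.31, adjusted p = 0.045 by limma). The H3K27ac interval tested at Slco1a1 had folds of 20.9 and 8.25 in WT and 7.2 and 5.35 in Cpt2 KO, so the WT livers themselves differed. At Nnmt, nicotinamide N-methyltransferase, the WT-only interval of 3316 bases had folds of 8.41 and 10.1 in WT and 21.0 and 14.2 in Cpt2 KO, so the marks went opposite ways without passing the test (limma adjusted p = 0.15). The widest Cpt2 KO-only interval, of 4116 bases over the start of Znhit2 (chr19:6060314-6064429), had H3K27ac in 1 of 2 WT livers (12.9) and both Cpt2 KO livers (16.1 and 12.3). In Dnmt3a, a DNA methyltransferase, the 2759-base interval overlapped no peak in WT and peaks of 14.3 and 14.4 in Cpt2 KO, but the H3K27ac interval it met reached 10.7 and 18.6 in WT elsewhere along its length (limma log2 difference −0.085, adjusted p = 0.84). At the end of Esrra, an orphan nuclear receptor of mitochondrial genes, the 2063-base interval had 6.32 and 7.88 in WT and no peak in the other 6 livers, so the marks went opposite ways there.

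H3K27ac, which played no part in forming the classes, was called at a lower share of WT-only intervals in each Cpt2-null liver than in each liver with Cpt2. Over all H3K9ac intervals the share was also lower in Cpt2 KO (53.8%) and DKO (52.9%) than in WT (62.2%), with Ppara KO at 55.7%. The H3K27ac peaks covered 42.1, 44.6, 42.0 and 44.9 Mb in the livers without Cpt2 and 47.8, 47.1, 47.4 and 44.8 Mb in those with it, and the part of this in the class shares was not tested. Of the WT-only intervals, 59.6% and 57.8% overlapped an H3K27ac peak of the 2 WT livers and 37.6% and 40.8% one of the 2 Cpt2 KO livers. Ppara KO livers gave 49.9% and 50.1%, and DKO livers 39.0% and 38.7%. The 4 livers without Cpt2 all lay below the 4 livers with it, by 15.3 percentage points on average (39.0 ± 1.32 against 54.3 ± 5.10, SD, n = 4 each; exact permutation test, two-sided, p = 0.0286, the smallest that 4 against 4 allows; 0.171 after adjustment over 12 tests). For Cpt2 KO against WT alone the difference was −19.5 points (exact permutation p = 0.333, the smallest that 2 against 2 allows).

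Cpt2 KO-only intervals overlapped H3K27ac at 29.8% and 32.4% (WT), 27.5% and 31.6% (Cpt2 KO), 30.7% and 25.8% (Ppara KO) and 27.8% and 28.7% (DKO), so the genotypes overlapped. The difference of −0.761 points over 4 against 4 livers had an exact permutation p of 0.657. Shared intervals lay at 75.01% and 79.1% in WT and at 67.9% to 71.6% in the other 6 livers (difference −4.14 points, exact permutation p = 0.171). The gap between the WT-only and Cpt2 KO-only shares within a liver, a measure added after the values were seen, differed by −14.55 points without Cpt2 (exact permutation p = 0.0286, adjusted p = 0.171), so no coverage difference passed correction. H3K4me1 at WT-only intervals differed by −10.7 points over 4 against 4 livers (exact permutation p = 0.0571, adjusted p = 0.229).

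**Figure D2:**
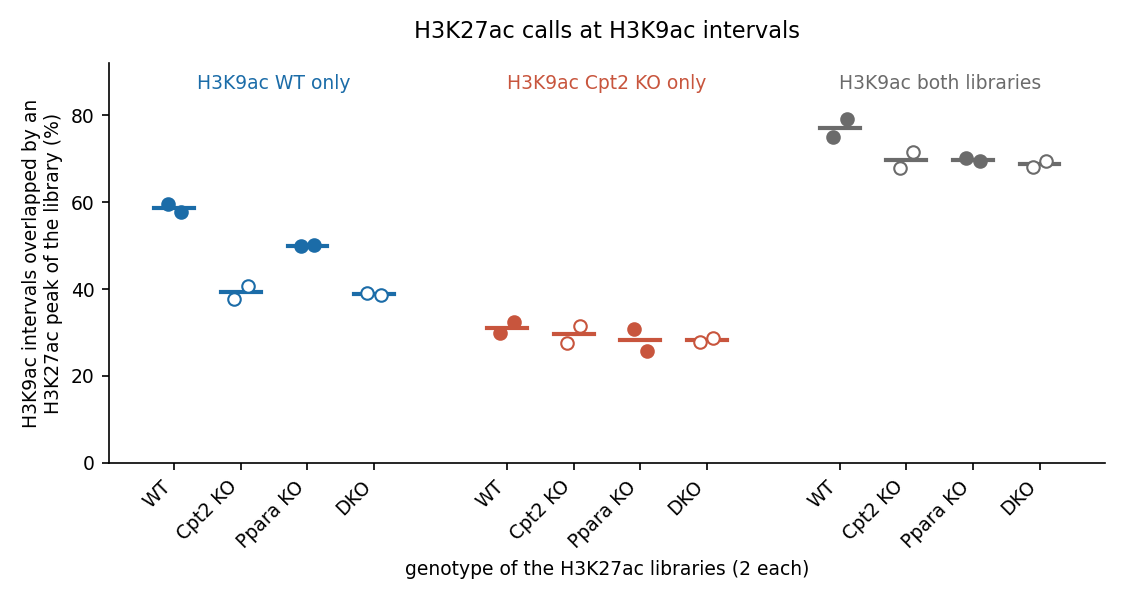
Share (%) of H3K9ac intervals of each class overlapped by an H3K27ac peak, per liver (points; 2 per genotype; open points lack Cpt2) with the genotype mean (line). At WT-only intervals the 4 livers without Cpt2 (37.6% to 40.8%) lie below the 4 with it (49.9% to 59.6%), and at Cpt2 KO-only intervals the genotypes overlap.

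Interval by interval, both 1-library classes had H3K27ac in the livers of their own genotype alone at a higher share than all H3K9ac intervals did. H3K27ac was called in both WT livers and neither Cpt2 KO liver at 1454 WT-only intervals (15.0%, against 7.34% of all H3K9ac intervals), at 446 Cpt2 KO-only intervals (4.003%) and at 1518 shared ones (5.90%). The opposite pattern held at 106 WT-only intervals (1.09%, against 1.78% of all), 421 Cpt2 KO-only ones (3.78%) and 300 shared ones (1.17%). Among intervals with either pattern, H3K27ac was in the WT livers at 93.2% of WT-only, 51.4% of Cpt2 KO-only and 83.5% of shared ones, against 80.5% of all. The counts rose when the pattern needed 1 liver fewer. For WT-only intervals they became 1638 to 1914 with H3K27ac in WT livers and 180 to 232 with it in Cpt2 KO livers. The Cpt2 KO-only count in WT livers became 919 without WT replicate 1 and 751 without Cpt2 KO replicate 2, and that in Cpt2 KO livers became 659 without WT replicate 1. The shared count in WT livers became 2356 and 2491 without the same 2 libraries. The shared count in Cpt2 KO livers became 471 without WT replicate 1, 793 without WT replicate 2 and 473 without Cpt2 KO replicate 1. Of Cpt2 KO-only intervals, 56.4% had no H3K27ac peak in any of the 4 livers, against 32.5% of WT-only and 16.6% of shared intervals.

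In the Ppara-null pair, which shares no library with WT or Cpt2 KO, H3K27ac was in both Ppara KO livers and neither DKO liver at 698 WT-only intervals (7.196%, against 3.59% of all) and in the opposite pattern at 77 (0.794%, against 1.90% of all). For Cpt2 KO-only intervals these counts were 247 and 280. A lost call did not always mean a lost H3K27ac interval. Of the 1454 WT-only intervals, 688 (47.3%) lay in an H3K27ac consensus interval that both Cpt2 KO livers still had elsewhere along its length, and 662 (45.5%) in one that neither had. Of the 421 Cpt2 KO-only intervals, 100 (23.8%) lay in an H3K27ac interval that both WT livers had.

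Among the WT-only intervals with H3K27ac in WT livers alone, the 10 that met the highest peaks lay at Prodh, Slc16a12, Prkag2, Foxa2, Cmah, Dpys, Haao (3 intervals) and Fasn. A fold given for an interval is that of a whole peak overlapping it by at least 1 base. It does not measure the signal in the interval's own bases. The 3 Haao intervals thus had the same WT folds (25.6 and 29.9). The first of the 10 lay in Prodh, proline dehydrogenase (chr16:18079909-18080424). It was overlapped by peaks of 33.9 and 32.9 in WT and by no peak in Cpt2 KO. Over its whole H3K27ac interval the Cpt2 KO livers kept 16.8 and 26.6 (limma log2 difference −0.88, SE 0.22, adjusted p = 0.023). Beside Fasn, fatty acid synthase, an interval of 308 bases had 20.3 and 32.2 in WT and no peak in any other liver, and over the whole H3K27ac interval the folds fell to 8.29 and 11.8 (limma log2 difference −1.60, SE 0.29, adjusted p = 0.0068). Beside Foxa2, a pioneer factor of hepatocytes, the folds were 27.6 and 33.4 (WT), none (Cpt2 KO), 5.70 and none (Ppara KO) and none (DKO), while the whole interval fell by 0.62 on the log2 scale (limma adjusted p = 0.033). Onecut1, another hepatocyte factor, is a member of the transcription factor list. Its WT-only interval met peaks of 10.2 and 19.5 in WT and none in Cpt2 KO (limma log2 difference of the whole interval −1.57, SE 0.37, adjusted p = 0.018).

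Among the Cpt2 KO-only intervals with H3K27ac in Cpt2 KO livers alone, the one that met the highest peaks lay in Gpcpd1. Its 298 bases were overlapped by peaks of 46.0 and 40.4 in Cpt2 KO and by none in WT. The whole H3K27ac interval there gave 34.4 and 37.4 in WT and the same 46.0 and 40.4 in Cpt2 KO, with no difference called (limma log2 difference 0.04, adjusted p = 0.87). Myo9b had 27.3 and 26.1 in Cpt2 KO over an interval of 1741 bases, no peak in WT, and peaks of 21.1 and 22.8 (Ppara KO) and 6.17 and 30.2 (DKO), and its whole interval rose (limma log2 difference 1.44, SE 0.25, adjusted p = 0.0059). In Fa2h, fatty acid 2-hydroxylase, peaks of 23.8 and 23.4 were called in the 2 Cpt2 KO livers and in no other liver.

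The size of the H3K27ac signal was then tested with limma at the 18281 H3K27ac intervals called in all 8 livers, of which 5.82% rose and 7.69% fell in Cpt2 KO against WT. Of those overlapping WT-only H3K9ac, 35 rose and 124 fell of 1066 (median log2 difference −0.18, against −0.033 over all). Of those overlapping Cpt2 KO-only H3K9ac, 117 rose and 8 fell of 854 (median 0.32), and of those overlapping shared H3K9ac 390 rose and 1157 fell of 12175 (median −0.13). H3K27ac intervals with no H3K9ac went the way of the Cpt2 KO-only ones, with 517 higher and 114 lower of 4104 (median 0.24), and both sets had low folds in WT (medians of 7.5 and 7.67 with Cpt2 KO-only H3K9ac, 7.53 and 7.28 with none, and 11.4 and 14.5 with shared H3K9ac). The split depended on centring each library on its median: without centring the median over all intervals was 0.19 in place of −0.033, and the counts became 77 higher and 59 lower for WT only, 215 and 5 for Cpt2 KO only and 735 and 465 for shared. The counts also rested on single livers. Without Cpt2 KO replicate 1, WT replicate 2 or Cpt2 KO replicate 2, the falls at WT-only H3K9ac numbered 16, 45 and 40, and the rises there 1, 5 and 18, and without WT replicate 1 they were 68 and 54. The rises at Cpt2 KO-only H3K9ac numbered 10, 27 and 37. The falls at shared H3K9ac numbered 108, 193 and 556, and the rises 15, 84 and 88. In DKO against Ppara KO, limma called 0 higher and 1 lower (0.00547%) of the 18281, with 2569 at an unadjusted p under 0.05.

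**Figure D3:**
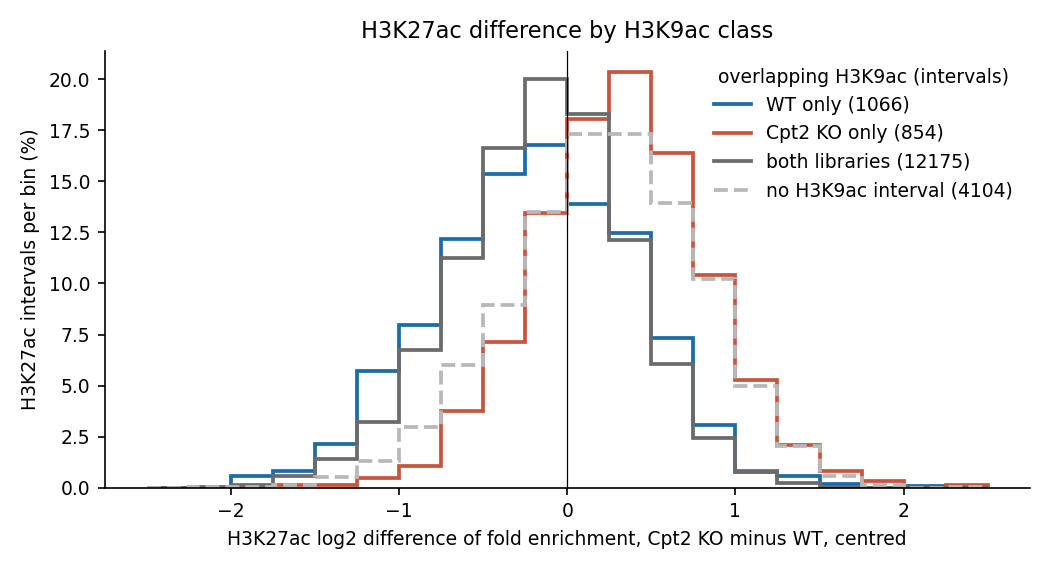
Distribution of the H3K27ac log2 difference (x axis, Cpt2 KO minus WT, centred; y axis, % of intervals per bin) for H3K27ac intervals overlapping each H3K9ac class or none. The Cpt2 KO-only curve (median 0.32) and the curve without H3K9ac (median 0.24) lie to the right of the WT-only (−0.18) and shared (−0.13) curves.

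The hepatocyte markers lay on the WT side of the H3K9ac comparison. Of the 66 intervals at 10 hepatocyte markers, 46 were WT only and 0 Cpt2 KO only, and all 10 genes had more H3K9ac bases in WT, counting from 1000 bases before to 1000 after the gene. Albumin (Alb) had 3825 bases in WT against 952 in Cpt2 KO, and Cps1 had 13633 and 4203. H3K27ac went the other way at both. Alb had 2058 and 1350 H3K27ac bases in WT and 3797 and 2781 in Cpt2 KO, and Cps1 had 5016 and 3088 against 8872 and 6478. Other markers fell in both marks, such as Ttr, with 6688 and 5380 H3K27ac bases in WT and 3528 and 3688 in Cpt2 KO. The H3K27ac bases summed over the 10 hepatocyte markers overlapped between genotypes, with 47757 and 42612 in WT and 48863 and 42790 in Cpt2 KO. Over all protein-coding genes, 5402 had more H3K9ac bases in WT and 7436 more in Cpt2 KO. The Cpt2 KO to WT ratio of summed bases was 1.00 over all genes and 0.554 over the hepatocyte markers. Among genes with an H3K9ac interval, 27.6% had at least 1 WT-only and 38.8% at least 1 Cpt2 KO-only interval.

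**Figure D4:**
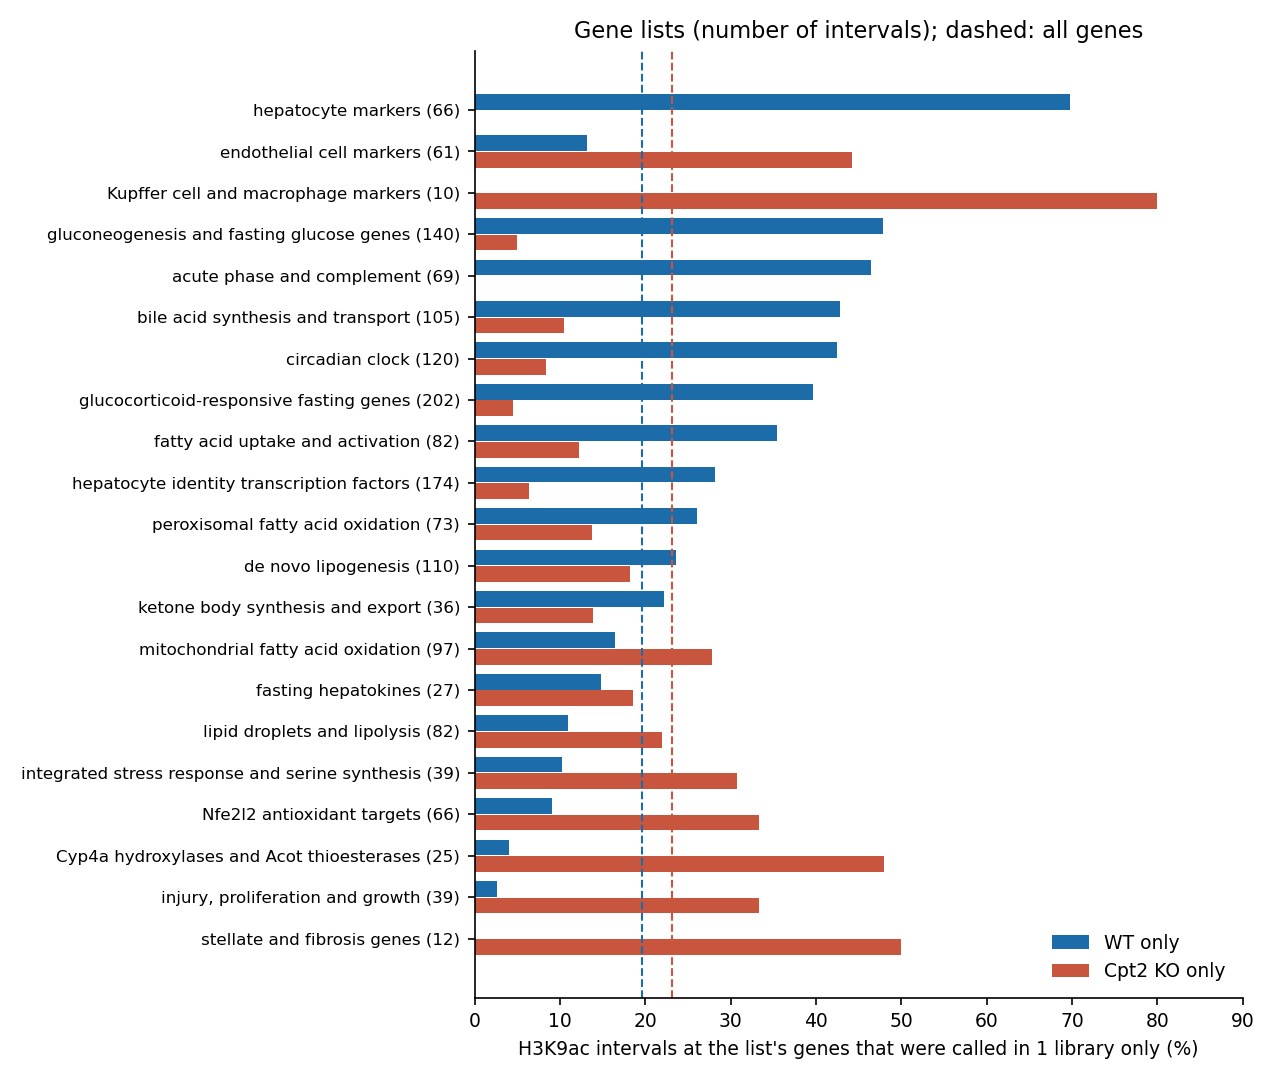
Percent of the H3K9ac intervals at each list's genes that were called in WT only or in Cpt2 KO only (bars; number of intervals in parentheses; marker lists with under 10 intervals left out), with the values over all genes dashed (19.6% and 23.1%). Hepatocyte markers, glucose, acute phase and bile acid genes lie on the WT side, and Acot and Cyp4a, injury, endothelial and Kupffer lists on the Cpt2 KO side.

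Endothelial, Kupffer cell and stellate markers had more bases of both marks in Cpt2 KO than in WT, while cholangiocyte markers had fewer of both. Of 10 endothelial markers, 8 had more H3K9ac bases in Cpt2 KO and 1 in WT (8 WT-only, 27 Cpt2 KO-only and 26 shared intervals), as in Pecam1 (2034 bases in WT, 5598 in Cpt2 KO), and Tek had none in either. The endothelial H3K27ac bases were 73248 and 56915 (WT), 90022 and 92475 (Cpt2 KO), 92810 and 74501 (Ppara KO) and 92752 and 78531 (DKO). Livers with and without Cpt2 thus overlapped. Pecam1 itself had 13366 and 10910 H3K27ac bases in WT and 10778 and 12038 in Cpt2 KO. The H3K27ac fold rose at 5 and fell at 0 of the 22 tested intervals, against 3.16% and 9.60% of those at all genes with H3K9ac. The rises lay in Cdh5, Fcgr2b, Oit3 and Pecam1. Of 10 Kupffer cell and macrophage markers, 5 had more H3K9ac in Cpt2 KO, among them C1qa (0 and 1355 bases), Clec4f (0 and 661) and Timd4 (0 and 248), while Adgre1, Cd5l, Lyz2, Marco and Vsig4 had none in either library. Their summed H3K27ac bases were 5873 and 5563 (WT), 13586 and 14649 (Cpt2 KO), 7767 and 10087 (Ppara KO) and 19874 and 23168 (DKO). Stellate markers had 2307 H3K9ac bases in WT and 4837 in Cpt2 KO, of which Ecm1 held 1419 and 3289. Des and Reln held the rest, while Col1a1, Col3a1, Colec11, Dcn, Hhip, Lrat and Pdgfrb had none in either library. The H3K27ac bases of the stellate markers were 8456 and 6688 in WT against 19496 and 18929 in Cpt2 KO. T and B cell markers had 363 and 1845 H3K9ac bases, but only 1 of 9 genes had any in WT and 2 in Cpt2 KO. These were Cd79a (363 and 1639) and Cd4 (0 and 206). The H3K27ac bases of the list were 4878 and 3026 in WT against 2125 and 1570 in Cpt2 KO. Cd4 held 4180 and 2356 of them in WT and 0 in both Cpt2 KO livers, while Ptprc had 0 in both WT livers and 952 and 1061 in Cpt2 KO. Cholangiocyte markers had 6946 and 5849 H3K9ac bases, with 7 of 10 genes at 0 in both, and H3K27ac bases of 12742 and 12737 in WT against 7437 and 8382 in Cpt2 KO. The part of these cell markers in the gene-list results was not tested.

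Acute phase and complement genes, made by hepatocytes, had 32 WT-only, 0 Cpt2 KO-only and 37 shared intervals. Of 19 genes, 15 had more H3K9ac bases in WT and 1 in Cpt2 KO. The fibrinogen chain Fgb had 6777 bases in WT against 1501 in Cpt2 KO, and Fgg had 6691 and 2936. Here H3K27ac went with H3K9ac, with 67832 and 64920 summed bases in WT against 40364 and 46621 in Cpt2 KO. The Ppara KO livers had 61260 and 63599 and the DKO livers 43016 and 50855, so both Cpt2-null pairs lay below both pairs with Cpt2. Of 16 tested H3K27ac intervals, 0 rose and 3 fell (Fgg, Itih3 and Itih4), against 3.16% and 9.60% of those at all genes with H3K9ac. Saa1 was the clearest single gene: H3K9ac covered 2260 bases in WT and none in Cpt2 KO, and H3K27ac covered 2970 and 211 bases in the 2 WT livers and none in the other 6, so the WT livers themselves differed.

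Bile acid genes had 45 WT-only, 11 Cpt2 KO-only and 49 shared intervals, and 13 of 15 genes had more H3K9ac in WT. Cyp7a1, the rate-limiting enzyme of bile acid synthesis, had 1203 bases in WT and none in Cpt2 KO, and Abcb11, the canalicular bile salt pump, had 1944 and none. H3K27ac fell at 6 and rose at 0 of 23 tested intervals, against 9.60% and 3.16% of those at all genes with H3K9ac. The falls lay in Abcb11, Cyp27a1, Nr0b2, Nr1h4 and Slco1a1. Abcc3, a basolateral export pump, went against the list in H3K9ac, with 7009 bases in WT and 13133 in Cpt2 KO. Its H3K27ac bases were fewer in Cpt2 KO (16252 and 15884) than in WT (23615 and 21384).

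Glucose genes of fasting gave the same side in H3K9ac: 67 WT-only, 7 Cpt2 KO-only and 66 shared intervals, with more bases in WT at 14 of 16 genes. Slc2a2, the hepatocyte glucose transporter, had 16650 bases in WT and 4315 in Cpt2 KO. Its H3K27ac bases were 28093 and 27161 (WT), 12698 and 13232 (Cpt2 KO), 25796 and 26959 (Ppara KO) and 14321 and 17207 (DKO), so all 4 Cpt2-null livers lay below the 4 others. Pck1, the key enzyme of gluconeogenesis, had nearly equal H3K9ac (7150 and 6994 bases). Pdk4, a kinase that spares pyruvate in fasting, went the other way (699 and 3618 bases), with a Cpt2 KO-only interval of 1456 bases just outside its start (chr6:5496674-5498129), where H3K27ac folds were 3.70 and 21.5 in WT and 23.6 and 20.0 in Cpt2 KO.

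The lipogenic genes split. Their list had 26 WT-only, 20 Cpt2 KO-only and 64 shared intervals, and a base ratio of 0.970. Thrsp, a lipogenic nuclear protein, had 2226 H3K9ac bases in WT and none in Cpt2 KO. Its H3K27ac bases were 3361 and 3366 (WT), 0 and 347 (Cpt2 KO), 1036 and 2007 (Ppara KO) and 966 and 1080 (DKO). Elovl5, a fatty acid elongase, had 12954 and 22403 H3K9ac bases. H3K27ac fell at 5 and rose at 0 of 25 tested intervals, against 9.60% and 3.16% of those at all genes with H3K9ac. Among the falls was the shared H3K9ac interval over the start of Srebf1, the lipogenic master regulator. Its folds were 22.2 and 18.5 in WT and 4.14 and 7.5 in Cpt2 KO (limma log2 difference −2.09, SE 0.33, adjusted p = 0.0048). The folds were also low in Ppara KO (5.83 and 7.5) and in DKO (6.8 and 6). H3K9ac covered 5267 bases there in WT and 4243 in Cpt2 KO. Hepatocyte transcription factors had 49 WT-only, 11 Cpt2 KO-only and 114 shared intervals, with more bases in WT at 17 of 19 genes. H3K27ac fell at 13 and rose at 1 of their 56 tested intervals, against the same 9.60% and 3.16%. Glucocorticoid-responsive genes had 80, 9 and 113 intervals and clock genes 51, 10 and 59.

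On the Cpt2 KO side stood the thioesterases and hydroxylases that act on fatty acids. The Acot and Cyp4a list had 1 WT-only, 12 Cpt2 KO-only and 12 shared intervals, with more H3K9ac bases in Cpt2 KO at 8 of 9 genes that had any. Acot1, a cytosolic acyl-CoA thioesterase, had 1700 bases in WT and 4902 in Cpt2 KO. The list's summed H3K27ac bases were 18910 and 22818 (WT), 33246 and 36293 (Cpt2 KO), 1962 and 4085 (Ppara KO) and 3470 and 3972 (DKO). Both Cpt2 KO livers were the highest and the 4 livers without Ppara the lowest. None of the 3 intervals called in all 8 livers passed the limma test (median log2 difference 0.41).

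Mitochondrial oxidation genes showed no side as a list, with 16 WT-only, 27 Cpt2 KO-only and 54 shared intervals, 9 genes with more H3K9ac in WT and 8 with more in Cpt2 KO. Single members gained both marks inside their bodies. Of this list's 17 genes with an interval, 3 gained both marks (Acadm, Etfb and Hadhb) and 0 lost both. Over all 12175 genes with an interval, 257 gained both and 681 lost both. In Hadhb, the thiolase subunit of the trifunctional protein, a Cpt2 KO-only interval (chr5:30172082-30172304) had H3K27ac of 10.4 and 10.5 in Cpt2 KO and no peak in the other 6 livers. In Etfb, a subunit of the electron-transfer flavoprotein, one (chr7:43454257-43454465) had 9.33 and 8 in Cpt2 KO alone. In Ehhadh, the peroxisomal bifunctional enzyme, one (chr16:21778973-21779453) had 7.78 and 8.33 in Cpt2 KO alone. In Acadm, medium-chain acyl-CoA dehydrogenase, one had 6.89 and 7.49 in Cpt2 KO, none in WT, 9.49 and 10.0 with Ppara lost and 10.1 and 15.4 with both lost, so livers without Ppara had the call too. Peroxisomal genes had 19, 10 and 44 intervals, but 9 of 13 genes had more H3K9ac bases in Cpt2 KO and 4 had more in WT (ratio 1.02). Of this list 1 gene gained both marks at an interval (Ehhadh) and 3 lost both at one (Crot, Hsd17b4 and Pecr). Hsd17b4 still had more bases of both marks in Cpt2 KO over the whole gene. Its H3K9ac bases were 6079 in WT and 6268 in Cpt2 KO, and its H3K27ac bases were 7119 and 6473 against 7550 and 7683. Pecr, a peroxisomal enoyl-CoA reductase, had 4614 H3K9ac bases in WT and 569 in Cpt2 KO. Its H3K27ac bases were 4523 and 6142 (WT), 979 and 1139 (Cpt2 KO), 5349 and 4221 (Ppara KO) and 2543 and 1774 (DKO).

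The stress and growth lists had Cpt2 KO to WT ratios of H3K9ac bases above 1, beside 7436 genes with more bases in Cpt2 KO and 5402 with more in WT over all genes. The integrated stress response list had 4 WT-only, 12 Cpt2 KO-only and 23 shared intervals, and 11 of 20 genes had more bases in Cpt2 KO against 5 in WT (ratio 1.16). The list's H3K27ac bases overlapped between genotypes, at 30631 and 33292 in WT and 30241 and 32244 in Cpt2 KO. Psat1, a serine synthesis enzyme, had an interval of 1430 bases over its start in Cpt2 KO (chr19:15924035-15925464) and none in WT. No liver had H3K27ac at that start, though H3K27ac covered 852 and 848 bases elsewhere in Psat1 in the Cpt2 KO livers and none in the other 6. Atf3, a stress-induced factor, had 1798 and 5136 H3K9ac bases. Antioxidant targets of Nfe2l2 had 6, 22 and 38 intervals, with more bases in Cpt2 KO at 11 of 17 genes. Their summed H3K27ac bases were lower in Cpt2 KO (44096 and 52148) than in WT (56285 and 62648). H3K27ac rose at 1 (Nqo1) and fell at 2 (Gclc and Gclm) of 18 tested intervals. These counts were near the shares at all genes with H3K9ac, of which 3.16% rose and 9.60% fell. Nqo1 had 0 and 627 H3K9ac bases, and H3K27ac at the start was 5 and 6.02 in WT and 12.01 and 14.3 in Cpt2 KO. Injury and growth genes had 1, 13 and 25, with more in Cpt2 KO at 13 of 18, and Ccnd1, cyclin D1, had 3254 and 7730 bases. Stellate and fibrosis genes had 0, 6 and 6 intervals, with 9 of 14 genes at 0 in both libraries. For the remaining lists the WT-only, Cpt2 KO-only and shared counts were 9, 18 and 55 for lipid droplets, 8, 5 and 23 for ketone bodies, 4, 5 and 18 for hepatokines, and 29, 10 and 43 for fatty acid uptake.

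Few start sites lost or gained the mark outright. Of 21263 start sites, 193 (0.908%) had a WT-only interval within 1000 bases and no shared one, 748 (3.52%) had a Cpt2 KO-only one, 10694 had a shared one and 9614 had none. In base content the WT-only promoters resembled the unmarked ones, and the Cpt2 KO-only promoters lay between the unmarked and the shared ones. Median GC contents were 49.7% (WT only), 59.3% (Cpt2 KO only), 62.0% (shared), 49.3% (none) and 56.3% (all windows). In that order, the medians were 4, 14, 22, 4 and 13 CG pairs per window. The part of GC content in the classes was not tested. H3K27ac went with the genotype at 21 of the 193 WT-only starts (10.9%, against 0.851% of all starts) and at 41 of the 748 Cpt2 KO-only ones (5.48%, against 1.25%), and 506 of the 748 (67.6%) had no H3K27ac in any of the 4 livers.

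Examples of these starts, chosen after their values were seen, follow. Hsd11b1, which regenerates active glucocorticoid, had 811 H3K9ac bases in WT only, with H3K27ac folds of 12.6 and 6.70 (WT), none (Cpt2 KO), 7.43 and 11.8 (Ppara KO) and 5 and 6.98 (DKO). Serpina1e, an alpha-1-antitrypsin gene of a near-identical family in which calls may be shared, had 15.8 and 10.4 (WT), none (Cpt2 KO), 10.3 and 12 (Ppara KO) and none (DKO). Mme, the membrane peptidase neprilysin, had 7.2 and 11.7 in WT and no peak in the other 6 livers. Among the 4 livers without Ppara, Hsd11b1 was called in all, Mme in none and Serpina1e in the 2 Ppara KO livers only.

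On the other side, Ucp3 had 2691 H3K9ac bases in Cpt2 KO, none in WT, and H3K27ac folds near its start of 5.85 and 4.71 in the 2 Cpt2 KO livers and none elsewhere. Nupr1 had 901 bases, with 4.11 and 4.10 in Cpt2 KO and 4.67 and 6.67 in DKO and none in the 4 livers with Cpt2. Cxcr4, a chemokine receptor of immune and endothelial cells, had 7.18 and 4.43 in Cpt2 KO and 11.4 and 11.1 in DKO and none in the other 4. Within 1000 bases of the start, Nupr1 and Cxcr4 were thus called in all 4 livers without Cpt2 and Ucp3 in the 2 Cpt2 KO livers. The H3K27ac interval that met the wider Ucp3 H3K9ac interval also had peaks in WT elsewhere along its length (5.14 and 3.88, against 15.9 and 16.8 in Cpt2 KO). Gpnmb, a glycoprotein of macrophages, had 5.60 and 5.52 in Cpt2 KO alone, and Timd4, a Kupffer cell receptor, had 6.88 and 6.91 in Cpt2 KO and 6.42 and 9.30 in DKO, with 1 Ppara KO liver at 6.28.

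**Figure D5:**
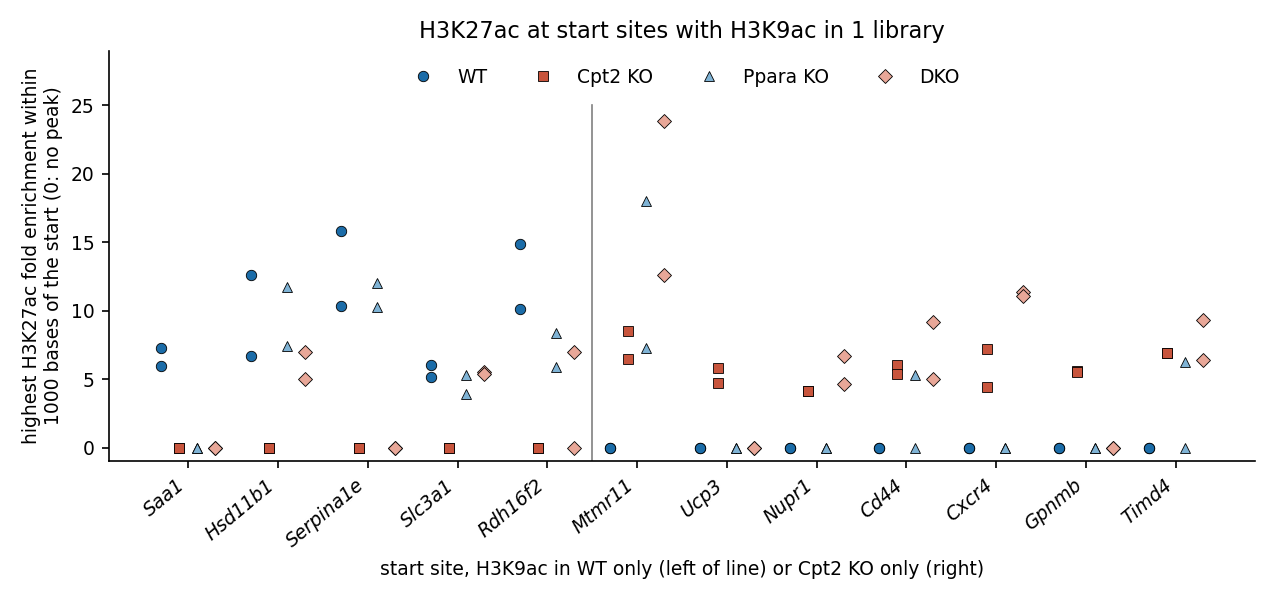
Highest H3K27ac fold over input within 1000 bases of start sites that had H3K9ac in WT only (left of the line) or Cpt2 KO only (right), per liver (points; 2 per genotype; 0 means no peak). All were chosen because the 2 WT and the 2 Cpt2 KO livers differ, and the Ppara KO and DKO livers show which calls go with Cpt2 in both pairs, such as Nupr1 and Cxcr4 (called in DKO, not in Ppara KO).

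Shared intervals covered like numbers of bases in both libraries, with a median Cpt2 KO to WT ratio of 1.01 over 25726. Of 5674 shared intervals of at least 2000 bases at genes, 139 covered at least 2 times as many bases in WT and 71 at least 2 times as many in Cpt2 KO. H3K27ac rose at 2 and fell at 31 of the 119 tested ones wider in WT (median log2 difference −0.39), rose at 2 and fell at 0 of 46 wider in Cpt2 KO (median 0.062), and rose at 100 and fell at 556 of 4825 between (median −0.18). In Cat, catalase, an interval covered 2266 bases in WT against 198 in Cpt2 KO, and H3K27ac fell (limma log2 difference −0.76, SE 0.22, adjusted p = 0.041). In Ppp1r3c, a glycogen-targeting subunit, an interval over the start covered 4012 and 355 bases, with H3K27ac folds of 13.7 and 15.1 in WT and 4.56 and 4.74 in Cpt2 KO. In Cntnap1 an interval covered 271 bases in WT and 3533 in Cpt2 KO, with no H3K27ac in WT and folds of 15.0 and 15.1 (Cpt2 KO), 10.1 and 15.3 (Ppara KO) and 12.7 and 20.7 (DKO).

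Large H3K27ac differences also occurred where the H3K9ac calls were alike. At the start of Ankrd33b H3K9ac covered 3521 bases in WT and 3359 in Cpt2 KO, while H3K27ac folds were 25.5 and 46.4 in WT and 6.03 and 10.8 in Cpt2 KO (limma log2 difference −2.32, SE 0.31, adjusted p = 0.0028). At Rnf11, a ubiquitin ligase, H3K9ac covered 1495 and 1570 bases, and H3K27ac folds were 23.1 and 36.0 (WT), 7.08 and 8.54 (Cpt2 KO), 29.1 and 23.2 (Ppara KO) and 9.79 and 10.9 (DKO) (Cpt2 KO against WT, limma log2 difference −2.12, SE 0.25, adjusted p = 0.0023; DKO against Ppara KO −1.64, SE 0.25, adjusted p = 0.061). At Rab3a, a vesicle GTPase, H3K9ac covered 1134 and 1138 bases, and H3K27ac rose from 6.39 and 8.5 to 29.4 and 24.6 (limma log2 difference 1.65, SE 0.21, adjusted p = 0.0025).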

How the data were processed

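H3K9ac, H3K27ac and H3K4me1 were measured by ChIP-seq in the livers described above. Per the submitters' processing notes, BWA and MACS2 2.1.0 were used with the mm10 build. The authors deposited 1 H3K9ac file that holds intervals of the consensus and of each library as positions only, and for the other marks 1 peak list per liver in which each peak has a fold over input (a ratio) and significance as −log10 values of p and q. Reads per library are not used here, so depth is unknown, and no per-sample column was left unused (0).

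Classes were formed by an overlap of at least 1 base. An interval was given to the protein-coding gene (RefSeq, GRCm38.p6) nearest its middle, and counted as at the gene if the body held its middle or an end lay within 1000 bases. Exons and introns were not used here. H3K27ac folds were those of the highest peak overlapping an interval by at least 1 base, so they belong to the whole peak. They were log2-transformed, centred on each library's median and tested with limma 3.58.1 in R 4.3.3 (trend, Benjamini-Hochberg adjusted p under 0.05). The test covered 18281 H3K27ac intervals called in all 8 livers. A fold of 0 means no peak. On simulated data the fit recovered 31.5% of 200 intervals with a log2 change of 1, with 2 false calls. The simulated noise was independent and had the same spread at every interval. It therefore does not measure false calls from shifts that the intervals of a liver share. Shares of covered intervals were compared by exact permutation tests, adjusted over 12 tests. Python 3.11.15, numpy 2.4.6, pandas 2.3.3, scipy 1.17.1 and matplotlib 3.10.9 were used. Genes were named by rule: the 10 widest intervals of each 1-library class, the 10 with the highest H3K27ac among those called in both livers of that genotype and neither of the other, the 10 shared intervals of at least 2000 bases with the largest width ratio each way, the 10 largest called H3K27ac differences each way at shared intervals, Cpt2, and the members of the lists. Not every gene so named is given in the text, and 1 is withheld and not reported here. Start sites and the genes with the most intervals were chosen after their values were seen. Members and lists were chosen with earlier results of these data known. Alternatives covered the overlap, the smallest width, the peak threshold, the scaling, the filter, the replicate number and each library left out.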

Additional observations from a re-analysis of the deposited data

Results flagged for a closer look

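The share of WT-only H3K9ac intervals that overlapped H3K4me1 was 56.7% in Ppara KO replicate 2, apart from the other 3 livers with Cpt2 by Dixon's test, which chance passes in about 1 in 20 groups. The Cpt2 effect on H3K27ac differed with Ppara at 1 interval, chr6:70812513-70815280, 20662 bases from its nearest gene Rpia and overlapping a Cpt2 KO-only H3K9ac interval. Folds there were 3.78 and 4.63 (WT), 27 and 24.9 (Cpt2 KO), 22.8 and 25.1 (Ppara KO) and 35.2 and 35.4 (DKO) (limma interaction −2.16 on the log2 scale, SE 0.28, adjusted p = 0.042).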

How the results depend on the processing

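The 3 H3K9ac classes kept their order in width and in distance to gene ends. With classes formed from 50% coverage, the median widths were 327, 308 and 1085 bases for WT only, Cpt2 KO only and shared, and 21.8% of Cpt2 KO-only and 52.4% of shared intervals lay near a gene end. With intervals of at least 500 bases, the classes numbered 3941, 4297 and 15246, with median widths of 714, 677 and 1647 bases and 15.0%, 31.4% and 63.8% near a gene end. Within 5000 bases of an end lay 43.1%, 54.9% and 69.5%. The small H3K27ac coverage difference at Cpt2 KO-only intervals changed sign with peaks of −log10 q of at least 10 (0.705 points for Cpt2 KO against WT, 1.08 over 8 livers) and ranged from −3.56 to 0.485 and from −2.07 to 0.150 with 1 liver left out. At WT-only intervals it stayed between −21.1 and −17.9, and between −16.8 and −13.6. Alternatives chosen after seeing the data were intervals of at least 500 bases for the H3K27ac and H3K4me1 comparisons and all those of the gap and of H3K4me1. With them, H3K4me1 at shared intervals gave 1.02 points, and the counts with H3K27ac in WT and in Cpt2 KO livers only were 651 and 36 (WT only), 254 and 132 (Cpt2 KO only), and 537 and 112 (shared). With 1 liver left out these counts ranged from 1638 to 1914 and 180 to 232 (WT only), 501 to 919 and 529 to 659 (Cpt2 KO only), and 1712 to 2491 and 421 to 793 (shared).

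For limma, the counts higher and lower without centring were 77 and 59 (WT only), 215 and 5 (Cpt2 KO only), and 735 and 465 (shared), with 1 and 9 calls in DKO against Ppara KO at the last 2 classes. With missing libraries filled, 352 fell at WT only, 219 rose and 54 fell at Cpt2 KO only, and DKO against Ppara KO gave 112, 61 and 320 calls. With the 4 WT and Cpt2 KO libraries alone 225 rose at shared intervals, and quantile normalization gave 2 DKO calls there. With 1 liver left out, counts higher and lower ranged from 1 to 54 and 16 to 127 (WT only), 10 to 143 and 0 to 9 (Cpt2 KO only), and 15 to 401 and 108 to 1393 (shared), with 0 to 4 DKO calls at shared intervals. The cause was not tested. Same-numbered livers deviated together only weakly (r = 0.172 for WT and Cpt2 KO). With 2 livers per genotype this cannot settle whether the numbers pair the livers, and the main fit did not use them. With the replicate number as a block, 45 rose and 133 fell at WT only, 131 and 9 at Cpt2 KO only, and 435 and 1285 at shared intervals. Of 20 named H3K27ac differences at shared intervals, 7 missed the threshold without Cpt2 KO replicate 1, 5 without WT replicate 2 and 2 without Cpt2 KO replicate 2.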
